A study of Homo sapiens with 2 samples.

Results

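Fatty acid synthesis and desaturation enzymes were examined in HEL cells, a human erythroleukemia cell line, after treatment with L1, a derivative of diindolylmethane. The 10 genes were chosen by symbol, and they were ACLY, ACACA, FASN, SCD, ELOVL5, ELOVL6, FADS1, FADS2, ACSL3 and ACSL4, out of 61806 Ensembl genes in the table of read counts. The cells carried the WT genotype by their label and were kept in RPMI with fetal bovine serum. Cells of 1 library received L1 at 1 µM for 24 h, and cells of the control library received 0.5% DMSO for 24 h. Messenger RNA was captured on beads and sequenced in 1 library per condition, and the DMSO library held 32556872 counts and the L1 library 27135647. The spread between cultures was therefore not measured, no test was run, and no difference below has a replicate check. Variation between cultures and an effect of L1 cannot be told apart.

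The identity of the cells was checked with a list of 10 markers of erythroid and megakaryocytic cells, and all 10 had at least 356 counts in each library. Of these markers HBG1 was at least 2-fold higher in L1 (log2 ratio 1.78, but 0.90 with the 7 overlapping genes of its locus merged, which is under 2-fold, and 33.1% of its 31-base words are found in another gene) and TFRC at least 2-fold lower (-1.25), and the part of such shifts in the results below was not tested. A list of 10 markers of fibroblasts, epithelium, T cells and B cells summed to 8 counts in DMSO and 16 in L1, and 6 of these genes were at 0 in both libraries. In RNA from a whole culture, fewer cells of a kind and less RNA per cell cannot be told apart.

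Cells build fatty acids in the cytosol from citrate. ATP citrate lyase releases acetyl-CoA, acetyl-CoA carboxylase turns it into malonyl-CoA, and fatty acid synthase joins these units into the saturated acid palmitate. ELOVL6 lengthens palmitate, and SCD places a double bond at the delta-9 position to give oleate and palmitoleate. The dietary polyunsaturated acids follow a separate route, in which FADS2, ELOVL5 and FADS1 act in turn. Long-chain acyl-CoA synthetases such as ACSL3 and ACSL4 activate free fatty acids, and ACSL4 prefers arachidonate. Many of these genes are known targets of the transcription factors SREBP1 and SREBP2 and of the liver X receptors.

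None of the 10 genes differed by 2-fold between the libraries. The 5 genes on the route from citrate to oleate were each moderately higher in L1, by 1.19-fold to 1.42-fold. On the polyunsaturated route FADS2 was lower in L1, while FADS1 and ELOVL5 were close to equal. The acyl-CoA synthetases went opposite ways, ACSL4 higher and ACSL3 lower in L1.

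Ratios between the libraries are given as the log2 ratio of L1 over DMSO after TMM scaling, a method of edgeR that sets the effective library sizes from the bulk of the genes. It made the effective size of the DMSO library 1.16 times that of the L1 library. The log2 ratios of the 10 enzymes, and of most other genes named, are given with an exact 95% Clopper-Pearson interval from the split of the counts, and these intervals cover counting error only. FPKM, the deposited count per kilobase of gene scaled to library size, is used to compare levels between genes. The deposited FPKM give the same ratios as the scaled counts, and are therefore not a second measurement.

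All 10 genes passed the filter of at least 10 counts in at least 1 library, and all 10 had a deposited FPKM. Their counts ran from 2505 to 16016. With a prior count of 2 added, 0 of 10 were at least 2-fold higher in L1, against 7.12% of the 18123 genes kept, and 0 of 10 were at least 2-fold lower, against 4.83%. These shares include many genes with few counts. Of the 3019 deeply counted genes, with at least 2000 counts in both libraries, 0.927% passed 2-fold upward in L1 and 0.431% downward. Requiring 2000 counts in each library itself drops genes that differ strongly. Examples are AK4, which went from 3396 counts (DMSO) to 922 (L1), and HACD3, from 1912 to 5055. Both shares are therefore partly set by this filter and do not give the rate of 2-fold differences at this depth. The median log2 ratio of the 10 genes was 0.25, against -0.004 for all genes kept and 0.01 for the deeply counted genes.

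The counting interval lay above 0 for 6 of the 10 genes and below 0 for 2 of them, while the intervals of ELOVL5 and FADS1 held 0. Over all genes kept, 26.8% had an interval above 0 and 28.6% one below 0. Among the deeply counted genes the shares were 41.7% above 0 and 37.3% below 0. An interval that leaves out 0 was thus common at this depth, and it shows only that the 2 libraries differed by more than counting error.

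**Figure D1:**
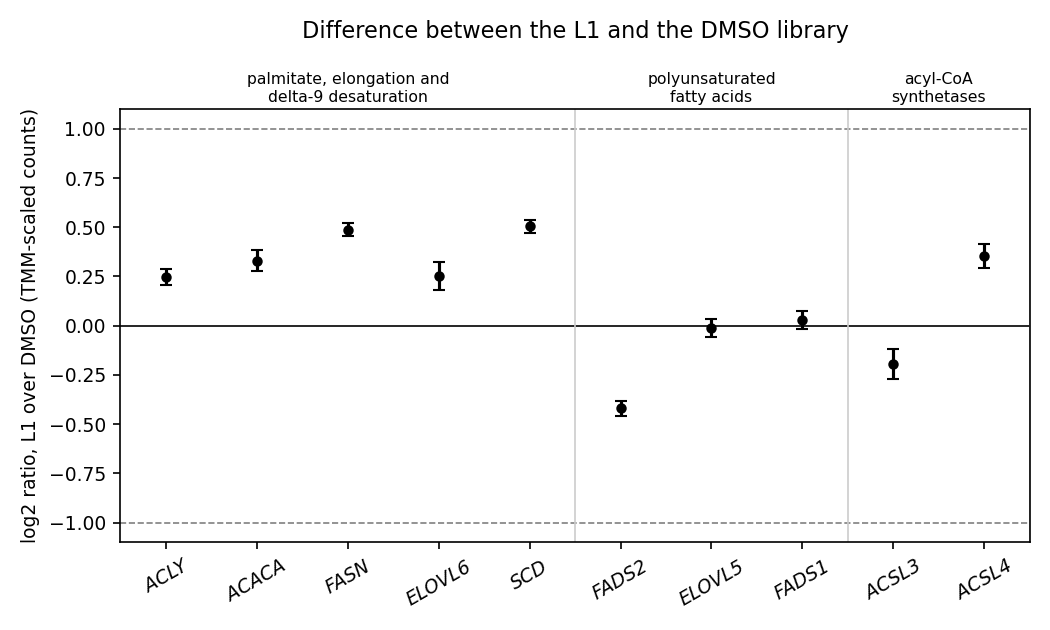
Log2 ratio of L1 over DMSO for the 10 genes after TMM scaling, 1 library per condition. Points are the ratios and bars the exact 95% counting intervals. FADS2 lies lowest at -0.42 and SCD highest at 0.51, and the bars of ELOVL5 and FADS1 cross 0.

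ACLY (ENSG00000131473), which splits citrate into acetyl-CoA and oxaloacetate, lies on chromosome 17 from 41866908 to 41930542 on the minus strand (GENCODE release 29, GRCh38, as for all positions of genes below). It was counted 10534 times in DMSO and 10790 times in L1, and its FPKM was 63.6 in DMSO and 75.5 in L1. After scaling it was 1.19-fold higher in L1, a log2 ratio of 0.25 with an interval from 0.21 to 0.29. The raw counts of the libraries were nearly equal, so its higher level in L1 rests on the smaller effective size of the L1 library.

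ACACA (ENSG00000278540) encodes the cytosolic acetyl-CoA carboxylase, the committed step of the pathway, and lies on chromosome 17 from 37084988 to 37406818 on the minus strand. Its counts were 5554 in DMSO and 6021 in L1, with FPKM of 13.4 and 16.9. ACACA was 1.26-fold higher in L1, a log2 ratio of 0.33 (0.28 to 0.38). Within the carboxylase pair, ACACA made up 90.7% of the summed FPKM in DMSO and 93.4% in L1. The remainder was ACACB, the form bound to mitochondria, which was counted 631 and 472 times, with a log2 ratio of -0.21 (-0.38 to -0.03 by counting error).

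FASN (ENSG00000169710) encodes fatty acid synthase and lies on chromosome 17 from 82078333 to 82098332 on the minus strand. It was counted 12357 times in DMSO and 14952 times in L1, and its FPKM was 41.7 and 58.5. FASN was 1.40-fold higher in L1, with a log2 ratio of 0.49 (0.45 to 0.52 by counting error). This exceeded the ratios of both enzymes upstream of it. The ratio of FASN to ACLY, which is free of any scaling between the libraries, was higher in L1 by 0.24 on the log2 scale (95% interval from counts, 0.19 to 0.29), and that of FASN to ACACA by 0.16 (0.10 to 0.22).

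SCD (ENSG00000099194), the main delta-9 desaturase, lies on chromosome 10 from 100347124 to 100364834 on the plus strand. Its counts were 13075 in DMSO and 16016 in L1, and its FPKM of 78.4 in DMSO and 111.3 in L1 was the highest of the 10 genes in either library. SCD was 1.42-fold higher in L1 (0.51 in log2, 0.47 to 0.54). The FPKM of SCD was 1.88 times that of FASN in DMSO and 1.90 times in L1, and the log2 difference of 0.02 had an interval from -0.03 to 0.07. Of the 31-base words in the SCD transcripts, 13.1% are found in other genes too, 5.76% in the pseudogene SCDP1, which had 5 counts in each library. The second delta-9 desaturase, SCD5, was counted 686 times in DMSO and 481 times in L1, a log2 ratio of -0.30, and its part of the summed delta-9 FPKM was 6.11% in DMSO and 3.59% in L1.

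ELOVL6 (ENSG00000170522), the elongase of palmitate, lies on chromosome 4 from 110045846 to 110199199 on the minus strand. It was counted 3013 times in DMSO and 3096 times in L1, with FPKM of 13.0 and 15.5. The log2 ratio was 0.25 (interval 0.18 to 0.33), or 1.19-fold, close to that of ACLY. Its raw counts were also nearly equal, so its higher level too rests on the smaller effective size of the L1 library. SCD acts on the products of FASN and ELOVL6, and the ratio of SCD to ELOVL6 was higher in L1 by 0.25 on the log2 scale (interval 0.17 to 0.33).

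Summed over ACLY, ACACA, FASN, ELOVL6 and SCD, DMSO had 44533 counts and L1 had 50875. The summed log2 ratio was 0.41 (interval 0.39 to 0.42), and the summed FPKM was 210.2 in DMSO and 277.8 in L1. The summed ratio weighs most on SCD and FASN, the most counted of these genes. Its narrow interval covers counting error and is not a spread among the genes. The median of the 5 log2 ratios was 0.33.

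**Figure D2:**
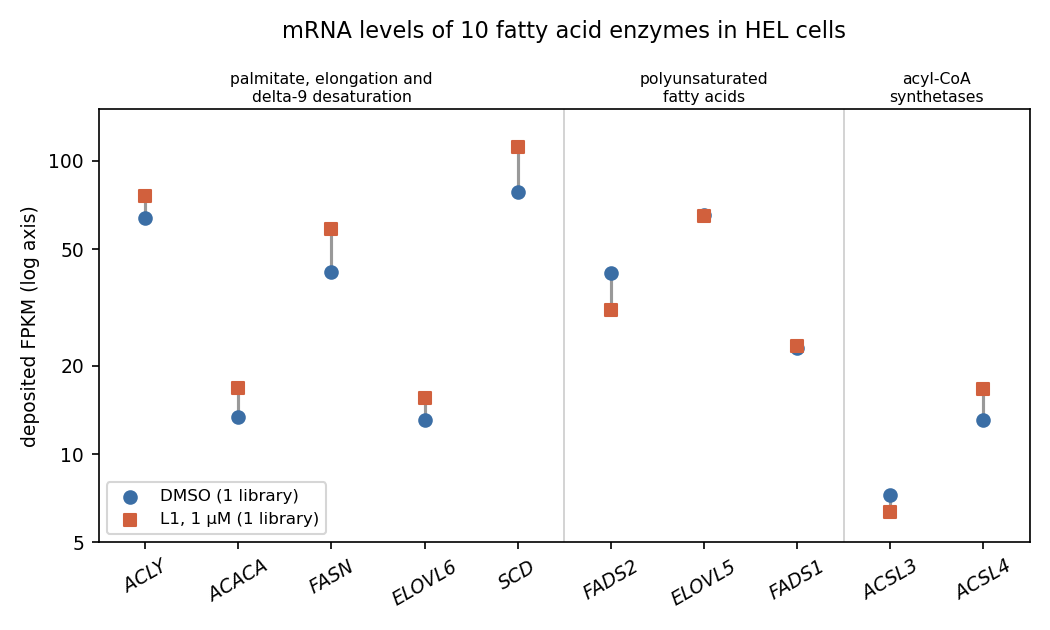
Deposited FPKM of the 10 genes in the DMSO and the L1 library, 1 library per condition, on a log axis, with the genes ordered by role. SCD reaches 78.4 in DMSO and 111.3 in L1, while ACSL3 has 7.25 and 6.33.

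The stretch just before the transcription start was read for each gene, because a promoter is where SREBP and its partner NF-Y bind at genes of this kind. RefSeq windows of 250 bases before a start (GRCh38.p14) were found for 9 of the 10 genes, in 13 windows, since some genes have several starts. FASN has no window in the table. The CCAAT box, the letters bound by NF-Y, was searched as CCAAT on both strands. It occurred in windows of 5 genes and in 7 of 13 windows, against 32.0% of 35116 windows of all genes. The windows of ACLY overlap one another, as do those of FADS2. The 13 windows are therefore not independent, and a match can be counted more than once, here and for the motifs below. Shown here are a window of SCD, with the largest ratio, one of ACLY, with a smaller one, and the window of ELOVL5, which was close to equal between the libraries. Each window holds 2 such boxes, printed in capitals (ATTGG is CCAAT on the other strand).
SCD, chr10:100346983-100347232, plus strand: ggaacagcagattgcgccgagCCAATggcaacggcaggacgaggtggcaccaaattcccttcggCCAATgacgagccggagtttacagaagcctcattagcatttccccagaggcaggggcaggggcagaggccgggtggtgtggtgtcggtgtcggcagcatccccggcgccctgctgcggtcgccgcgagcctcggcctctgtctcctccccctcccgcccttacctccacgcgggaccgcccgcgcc
ACLY, chr17:41919023-41919272, minus strand: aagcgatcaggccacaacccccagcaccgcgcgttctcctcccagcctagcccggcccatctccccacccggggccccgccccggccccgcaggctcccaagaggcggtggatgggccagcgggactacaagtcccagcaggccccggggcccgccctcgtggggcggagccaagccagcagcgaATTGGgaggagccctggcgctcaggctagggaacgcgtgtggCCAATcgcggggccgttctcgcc
ELOVL5, chr6:53348951-53349200, minus strand: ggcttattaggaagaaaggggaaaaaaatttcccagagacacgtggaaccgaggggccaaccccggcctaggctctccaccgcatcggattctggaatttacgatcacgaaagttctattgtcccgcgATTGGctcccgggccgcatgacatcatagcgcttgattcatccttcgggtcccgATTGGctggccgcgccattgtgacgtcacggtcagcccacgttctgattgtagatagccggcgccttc

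The boxes begin 229 and 186 bases before the start in SCD, 65 and 23 in ACLY, and 122 and 68 in ELOVL5. Boxes were also found in some windows of ACACA and in that of ACSL3, but not in those of ELOVL6, FADS1, FADS2 and ACSL4. A link between the boxes and the ratios was not tested. The GC box GGGCGG, searched on both strands, occurred in windows of 8 genes and in 10 of 13 windows, against 42.6% of all windows. The E-box CACGTG was found in 1 gene, ELOVL5, against 6.34% of all windows. The letters TCACNCCAC, a core of the sterol response element in which N is any base, were found on either strand in 0 of 13 windows, against 0.883% of all windows, which says only that they are not in these 250 bases. Matches of different motifs overlapped in 0 cases in the 13 windows, and a match describes the letters, not a bound site.

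FADS2 (ENSG00000134824), the delta-6 desaturase that opens the polyunsaturated route, lies on chromosome 11 from 61792980 to 61867354 on the plus strand. Its counts were 13851 in DMSO, the highest of the 10 genes in that library, and 8937 in L1. The FPKM was 41.3 in DMSO and 30.9 in L1. FADS2 was 1.34-fold lower in L1, with a log2 ratio of -0.42 (-0.46 to -0.38 by counting error).

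Exons of FADS2 overlap those of FEN1, a flap endonuclease of DNA replication, on the same strand. FEN1 was counted 4088 times in DMSO and 3069 times in L1, a log2 ratio of -0.20 (-0.27 to -0.13 by counting error), so it too was lower in L1. With the locus counted as 1 gene, the counts were 17939 and 12006 and the log2 ratio was -0.37. FADS1 overlaps FADS2 from the opposite strand, and use of the strand in counting is not given in the sources used here, so reads in the shared stretch may belong to either gene. Of the 31-base words of FADS2, read on either strand, 3.6% occur in FADS1, and 3.8% of those of FADS1 occur in FADS2.

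FADS1 (ENSG00000149485), the delta-5 desaturase that makes arachidonate, lies on chromosome 11 from 61799625 to 61829318 on the minus strand. It was counted 7457 times in DMSO and 6565 times in L1, with FPKM of 22.9 and 23.4. The log2 ratio was 0.03 (interval -0.02 to 0.08). Against its neighbour, FADS1 was at an FPKM ratio of 0.556 to FADS2 in DMSO and 0.758 in L1, a log2 difference of 0.45 (interval 0.39 to 0.51).

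ELOVL5 (ENSG00000012660) lengthens the polyunsaturated acids between both desaturase steps and lies on chromosome 6 from 53267398 to 53349179 on the minus strand. Its counts were 7910 in DMSO and 6765 in L1, and its FPKM of 65.3 and 64.7 was nearly equal. The log2 ratio was -0.01 (interval -0.06 to 0.03). The ratio of ELOVL5 to FADS2 was higher in L1 by 0.41 on the log2 scale (interval 0.35 to 0.47), and FADS2 alone of the 3 genes had an interval below 0.

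Summed over FADS2, ELOVL5 and FADS1, DMSO had 29218 counts and L1 had 22267, which is a log2 ratio of -0.18 (-0.20 to -0.15 by counting error). This ratio rests on FADS2, the most counted of these genes, since ELOVL5 and FADS1 were close to equal. The summed FPKM was 129.5 in DMSO and 119.0 in L1. Among the 10 enzymes, SCD and FADS2 had the highest and the lowest log2 ratio. The FPKM ratio of SCD to FADS2 was 1.90 in DMSO and 3.61 in L1, a log2 difference of 0.92 (interval 0.87 to 0.98) that needs no scaling between the libraries. These genes are the extremes of the 10, so a wide gap follows from the choice, which the interval does not take into account.

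**Figure D3:**
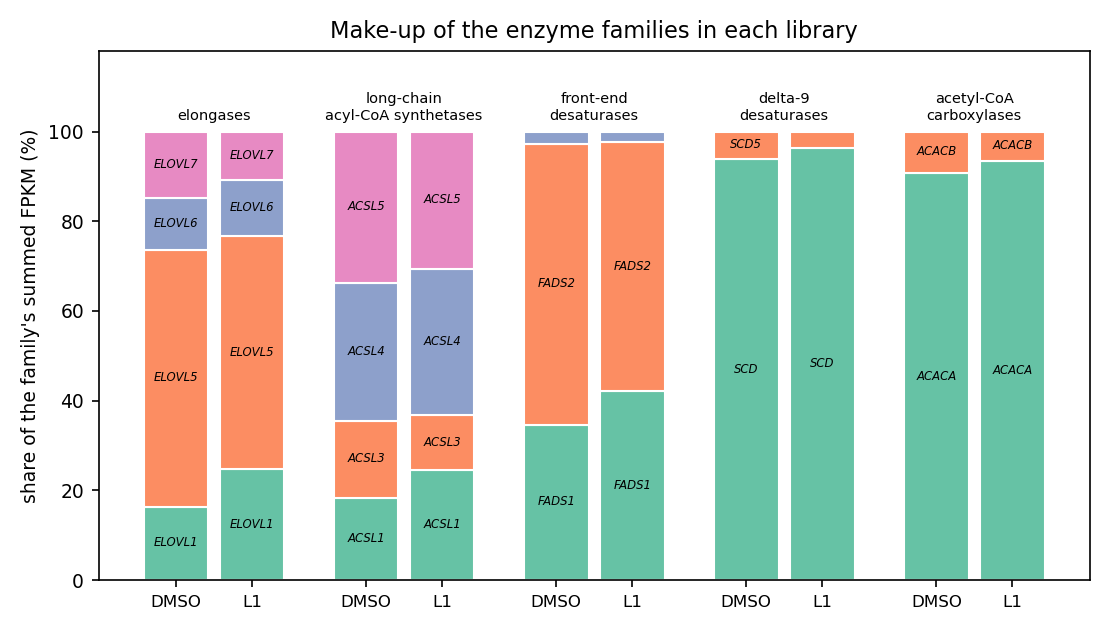
Share of each gene in the summed FPKM of its enzyme family, in percent, in the DMSO and the L1 library, 1 library per condition. ELOVL5 holds 57.3% of the elongases in DMSO and 52.1% in L1, and FADS2 holds 62.4% of the front-end desaturases in DMSO and 55.5% in L1.

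ACSL4 (ENSG00000068366) lies on chromosome X from 109624244 to 109733403 on the minus strand. It was counted 4137 times in DMSO and 4565 times in L1, with FPKM of 13.1 and 16.7. ACSL4 was 1.28-fold higher in L1 (0.36 in log2, 0.29 to 0.42).

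ACSL3 (ENSG00000123983), a synthetase of the endoplasmic reticulum and lipid droplets, lies on chromosome 2 from 222860934 to 222944639 on the plus strand. Its counts were 3325 in DMSO and 2505 in L1, the lowest of the 10 genes in L1, and its FPKM was 7.25 and 6.33. The log2 ratio was -0.20 (interval -0.27 to -0.12), or 1.15-fold lower in L1. The ratio of ACSL4 to ACSL3 was 1.80 in DMSO and 2.64 in L1 by FPKM, a log2 difference of 0.55 (interval 0.45 to 0.65).

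By FPKM in DMSO the order of the genes was SCD, ELOVL5, ACLY, FASN, FADS2, FADS1, ACACA, ACSL4, ELOVL6 and ACSL3. In L1 only ACLY and ELOVL5 changed places. With counting error alone, the intervals of 4 of the 9 pairs of neighbours overlapped in DMSO, namely ELOVL5 with ACLY, FASN with FADS2, ACACA with ACSL4 and ACSL4 with ELOVL6. In L1 those of 1 pair overlapped, ACACA with ACSL4. In DMSO the 10 genes stood between percentile 59.0 for ACSL3 and percentile 96.6 for SCD among the 13924 genes with a deposited FPKM. Summed over the 10 genes, the FPKM was 360.0 in DMSO and 419.8 in L1, and the share of all counts was 0.249% in DMSO and 0.296% in L1.

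The place of ACSL3 and ACSL4 in this order depends on the gene length behind the deposited FPKM. The values imply 14341 bases for ACSL3 and 9905 bases for ACSL4, against 7240 and 6415 bases of exon in GENCODE release 29, while the other 8 genes have implied lengths of 0.951 to 0.994 times the exon length. With the GENCODE lengths, the FPKM of ACSL3 would be 14.4 in DMSO and 12.5 in L1, and that of ACSL4 20.2 and 25.8. ACSL3 would then stand above ACACA and ELOVL6 in DMSO, and ACSL4 above FADS1 in L1. The ratios between the libraries do not depend on the length. Beside FADS1, FADS2 and FEN1, the annotated genes with exons over those of the 10 enzymes were sparsely counted. They were KCNE5 at ACSL4 (10 and 12 counts), MIR1908 at FADS1 (1 and 1), and the antisense genes AC125257.2 at ACLY (66 and 78) and AC013476.1 at ACSL3 (0 and 0).

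Among the long-chain acyl-CoA synthetases, ACSL4 held 30.8% of the summed FPKM in DMSO and 32.5% in L1, and ACSL3 held 17.1% and 12.3%, with the same limit on length. ACSL1 was counted 1516 times in DMSO and 2113 times in L1, a log2 ratio of 0.69 (0.60 to 0.79 by counting error), and its share was 18.4% in DMSO and 24.5% in L1. Among the elongases, ELOVL5 held 57.3% of the summed FPKM in DMSO and 52.1% in L1, and ELOVL6 held 11.4% and 12.5%. ELOVL1, an elongase of very long saturated acids, made up 16.4% in DMSO and 24.7% in L1, with a log2 ratio of 0.71 (0.62 to 0.81 by counting error).

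**Figure D4:**
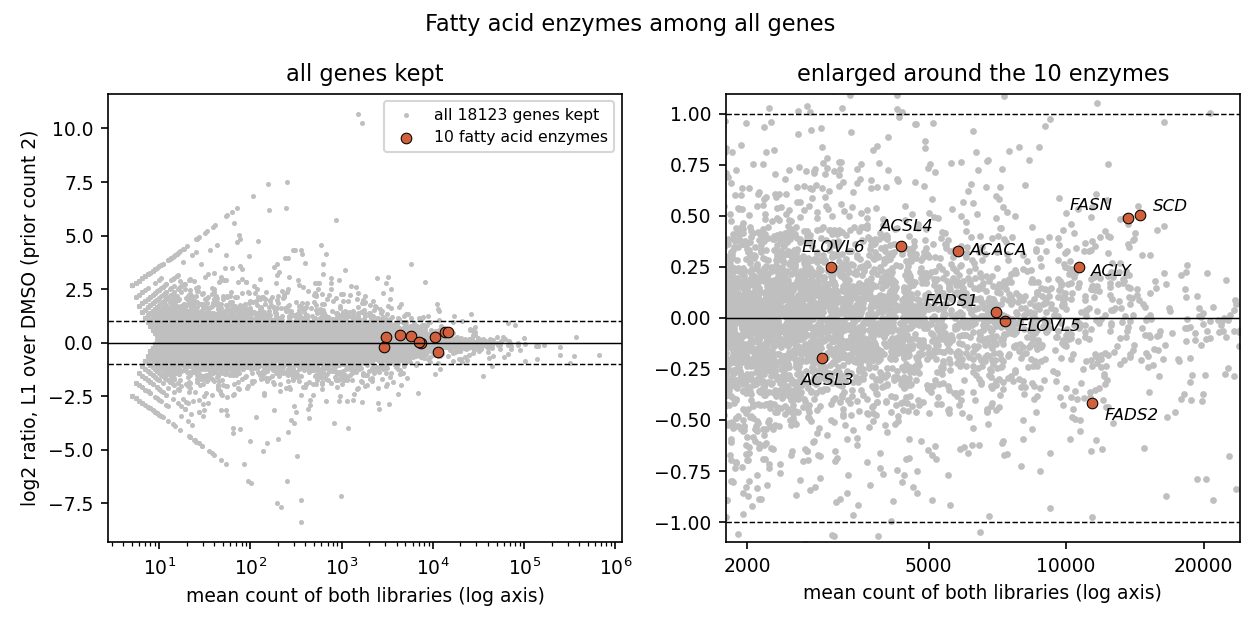
Log2 ratio of L1 over DMSO with a prior count of 2 against the mean count of both libraries (log axis) for the 18123 genes kept, over the whole range on the left and around the 10 genes on the right. Dashed lines mark 2-fold, and all 10 genes lie between them, from -0.42 to 0.51.

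The genes that work beside these enzymes were described with the same measures, in lists written from general knowledge. Their counts are read against the shares of all genes given above, and no list was tested. Of 11 other genes of elongation, 8 passed the filter, 2 were at least 2-fold higher in L1 and 0 lower, with a median log2 ratio of 0.19. HACD3 and HACD2, dehydratases of the elongation cycle, were the 2 that passed 2-fold. HACD3 was counted 1912 times in DMSO and 5055 times in L1 (ratio 1.62 in log2, 1.54 to 1.69), and HACD2 had 357 and 892 (1.53, 1.36 to 1.72). ELOVL2, ELOVL4 and HACD4 were at 0 counts in both libraries, where a count of 0 allows up to 3 counts, or 0.0921 CPM in DMSO and 0.111 CPM in L1, by counting error only.

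Of 5 other genes of desaturation, 1 was at least 2-fold higher and 0 lower, 4 had intervals below 0, and the median was -0.47. The higher gene was CYB5B, the outer mitochondrial cytochrome b5, with 1300 counts in DMSO and 3238 in L1 (ratio 1.53 in log2, 1.44 to 1.62), and it shares 35.3% of its 31-base words with other genes. CYB5A, the cytochrome b5 of the endoplasmic reticulum that passes electrons to the desaturases, was counted 341 and 204 times (-0.53, -0.79 to -0.27). Its reductase CYB5R3 was counted 4001 and 2488 times (-0.47, -0.55 to -0.40). FADS3 was counted 379 and 235 times (-0.48, -0.72 to -0.24). CYB5A and CYB5R3 were thus lower in L1, as FADS2 was, while CYB5B and SCD were higher.

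Of 11 other acyl-CoA synthetases, 9 passed the filter, with 0 at least 2-fold higher, 1 lower and a median of 0.25. SLC27A1, a fatty acid transport protein, was the lower one, with 130 counts in DMSO and 33 in L1 (ratio -1.76 in log2, -2.36 to -1.20). SLC27A3 was counted 162 and 259 times (0.89, 0.60 to 1.18), but its exons overlap those of INTS3 and the merged locus gave 0.29 in log2.

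Of 15 genes that supply acetyl-CoA precursors, NADPH or cofactors, 14 passed the filter and 0 reached 2-fold in either direction, with 5 intervals above 0, 5 below 0 and a median of -0.09. The 3 farthest from 0 were IDH1 (0.23, 0.12 to 0.34), ACACB as given above, and HLCS, which attaches biotin to the carboxylases (0.18, 0.06 to 0.30). ME1, the cytosolic malic enzyme, was at 0 counts in both libraries. The supply genes were thus closer to 0 than SCD and FASN.

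The control of these genes by SREBP and the liver X receptors was described with 14 genes, of which 12 passed the filter. None reached 2-fold, 1 interval lay above 0 and 3 below 0, and the median was 0.00. SREBF1, which encodes SREBP1, was counted 2853 times in DMSO and 1526 times in L1, with FPKM of 10.9 and 6.76. Its log2 ratio was -0.69 (interval -0.78 to -0.60), below 0 while SCD and FASN were above it. The exons of SREBF1 overlap those of RAI1 on the opposite strand, and RAI1 was counted 2442 times in DMSO and 1442 times in L1.

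SREBF2, which encodes SREBP2, was counted 9239 and 8209 times, and its log2 ratio was 0.04 (interval -0.0005 to 0.09). The ratio of SREBF1 to SREBF2 was lower in L1, with a log2 difference of -0.73 (interval -0.83 to -0.63). INSIG1, which holds SREBP in the endoplasmic reticulum and is itself a target, was counted 736 and 1034 times (0.70, 0.57 to 0.84). RXRA, the partner of the liver X receptors, was counted 1412 and 871 times (-0.48, -0.61 to -0.36), and MLX, the partner of the glucose-sensing factor, had a log2 ratio of -0.12 (-0.19 to -0.06 by counting error).

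The other control genes had intervals that held 0. These were the receptors NR1H2 (-0.09) and NR1H3 (0.10), the escort protein gene SCAP (-0.04), the site proteases MBTPS1 (0.08) and MBTPS2 (-0.13), INSIG2 (0.30, -0.04 to 0.63) and MID1IP1, an activator of acetyl-CoA carboxylase (0.04). MLXIPL and THRSP were at 0 counts in both libraries.

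A list of 11 sterol genes, known targets of SREBP2, served as a reference for size, and INSIG1 stands in this list too. Of these 11, 10 passed the filter, 2 were at least 2-fold higher and 0 lower, 9 intervals lay above 0, and the median log2 ratio was 0.71, against 0.25 for the 10 fatty acid enzymes. HMGCS1, which makes HMG-CoA for sterol synthesis, was counted 2265 times in DMSO and 14085 times in L1 (ratio 2.85 in log2, 2.79 to 2.91). LSS was counted 3142 and 6384 times (1.24, 1.17 to 1.30), and SQLE had 6830 and 11581 (0.97, 0.93 to 1.02). The ratio of HMGCS1 to FASN was higher in L1 by 2.36 on the log2 scale (interval 2.29 to 2.43), so FASN differed far less than HMGCS1 between the libraries.

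**Figure D5:**
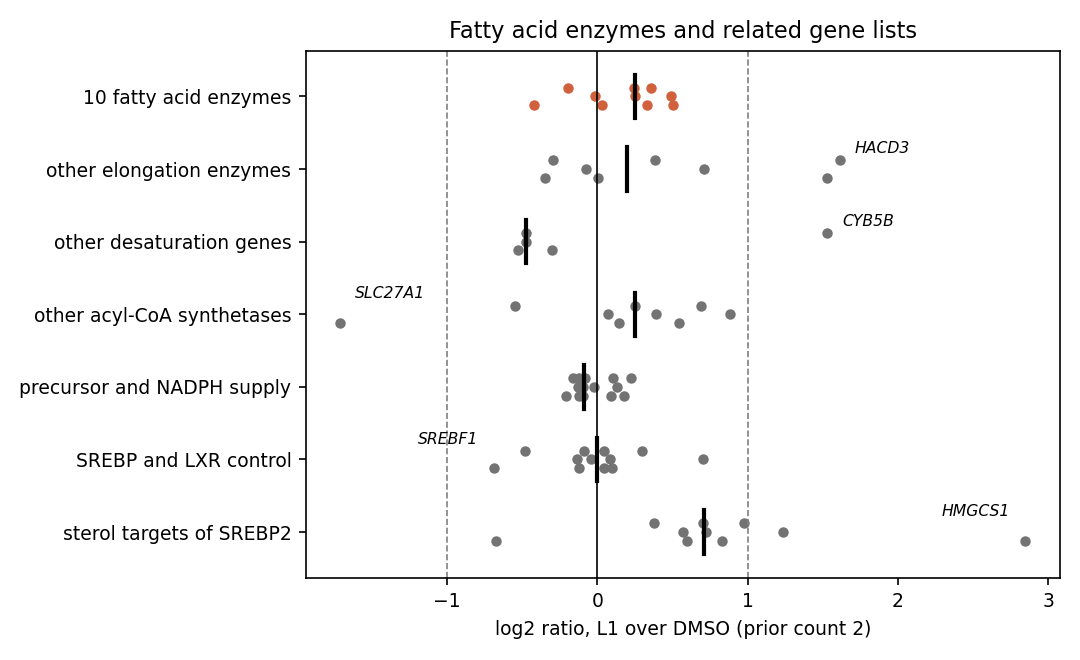
Log2 ratio of L1 over DMSO with a prior count of 2 for the 10 fatty acid enzymes and the lists of related genes that passed the filter. Points are single genes, bars are list medians, which are 0.25 for the 10 enzymes and 0.71 for the sterol genes, and dashed lines mark 2-fold.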

How the data were processed

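RNA of HEL cells was sequenced in 1 library for DMSO and 1 for L1. The submitters' processing notes name fastp 2.0, HISAT2 2.1.0, StringTie and the genome build hg38. The counting program, annotation and strand setting are not given in the sources used here. The authors deposited unnormalized counts of 61806 Ensembl genes, and FPKM for 13924 genes, scaled to each library and gene length. The FPKM carry the TMM ratio of the libraries.

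Libraries were scaled by TMM (edgeR 4.0.16, R 4.3.3), with DESeq2 1.42.0 for comparison. The remaining work was done in Python 3.11.15 (numpy 2.4.6, pandas 2.3.3, scipy 1.17.1, matplotlib 3.10.9). Genes with at least 10 counts in 1 library were kept (18123). A prior count of 2 was used for list medians and 2-fold calls, and none for single genes. Intervals are exact 95% Clopper-Pearson, or, for ratios of 2 genes, normal intervals from the 4 counts. The scripts were tested on simulated counts. Positions, exon lengths, exon overlaps and shared 31-base words came from GENCODE release 29, which holds 58254 of the identifiers.

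All 10 enzymes are named, with, per related list, the 3 genes farthest from 0 among those with at least 100 counts in the higher library, all control genes with at least 100 counts, and genes with overlapping exons. Others (SCD5, CYB5R3, genes at 0 counts) were named after their values were seen. The result of 1 gene of the sterol list is not reported here. The genes and lists were chosen with earlier results of these data known. Alternatives were total counts, DESeq2 and upper quartile scaling, log2 of FPKM, prior counts of 0.5 and 5, merged loci, a 1.5-fold threshold and no filter. The genes with at least 2000 counts and the GENCODE lengths were added after seeing the data.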

Additional observations from a re-analysis of the deposited data

How the results depend on the processing

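No paired analysis was possible because only 1 library was made per condition, and for the same reason no replicate could be left out. The number of enzymes past 2-fold stayed at 0 in both directions under every alternative, also at 1.5-fold. The number of intervals above 0 was 6 or 7, and it was 7 under total counts and upper quartile scaling, where FADS1 joined. The number below 0 stayed at 2. The median log2 ratio ran from 0.22 with DESeq2 size factors to 0.30 with total counts. Of 80 alternative log2 ratios of single enzymes, 70 stayed within the counting interval and 10 moved out of it. The FPKM carry the TMM ratio and the prior counts are small beside the enzymes' counts, so those alternatives could hardly move a ratio. Of the 10 that moved, 6 came from total counts, 3 from upper quartile scaling, 0 from DESeq2 and 1 from merged loci. Of the ratios whose interval left out 0, 0 changed sign. ELOVL5, whose interval held 0, went from -0.01 to 0.04 with total counts and to 0.03 with upper quartile scaling. FADS1, whose interval also held 0, went from 0.03 to -0.002 with DESeq2 size factors. The shift of all ratios against TMM was 0.05 for total counts, -0.03 for DESeq2 and 0.04 for upper quartile. With the exon lengths of GENCODE release 29, chosen after seeing the data, the DMSO FPKM left its counting interval for SCD (76.2), FADS2 (39.3), ACSL3 (14.4) and ACSL4 (20.2). Depth limits only the counting error, and the spread between cultures was not measured.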

Other observations

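Other lipid genes were described in the same 2 libraries, again with no test. Over all genes kept, 7.12% were at least 2-fold higher in L1 and 4.83% at least 2-fold lower. Intervals lay above 0 for 26.8% of all genes kept and below 0 for 28.6%, and for 41.7% and 37.3% of the deeply counted genes. Of 9 genes of phospholipid remodelling, all passed the filter and 0 reached 2-fold, with 3 intervals above 0, 5 below 0 and a median log2 ratio of -0.22. MBOAT7, which places arachidonate into phosphatidylinositol, was counted 1764 times in DMSO and 2568 times in L1 (ratio 0.75 in log2, 0.67 to 0.84). LPCAT4 was counted 885 and 525 times (-0.54, -0.70 to -0.38), and LPGAT1 had 2136 and 1430 (-0.37, -0.46 to -0.27). Of 15 genes of glycerolipid synthesis, 12 passed the filter and 0 reached 2-fold, with a median of -0.04. DGAT2, a last step of triglyceride synthesis, was counted 84 and 132 times (0.87, 0.46 to 1.28), AGPAT2 had a log2 ratio of -0.30 (-0.46 to -0.14 by counting error) and GPAM one of 0.21 (interval 0.02 to 0.40).

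Fatty acid oxidation was described with 20 genes, of which 18 passed the filter and 0 reached 2-fold, with a median of 0.06. Intervals lay above 0 for 9 genes and below 0 for 5. The shares were 26.8% and 28.6% of all genes kept, and 41.7% and 37.3% of the deeply counted genes. HADH was counted 2184 times in DMSO and 1152 times in L1 (-0.71, -0.81 to -0.61), and ETFDH had 875 and 1200 (0.67, 0.54 to 0.80). The exons of ETFDH overlap those of PPID (2238 and 2420 counts) and C4orf46 (2478 and 1792) on the opposite strand. CPT1B had 0.62 in log2. It shares 64.2% of its 31-base words with other genes, and its merged locus had 0.22. Of 8 subunits and kinases of AMPK, which phosphorylates acetyl-CoA carboxylase, 6 passed the filter, with a median of 0.11. PRKAG1 had 0.44, STK11 0.28 and PRKAA1 -0.23. Of 6 genes of mitochondrial fatty acid synthesis, 5 passed the filter, with a median of 0.02, and OXSM was counted 379 times in DMSO and 561 times in L1 (0.78, 0.59 to 0.97). The exons of OXSM overlap those of NGLY1 (2054 and 2236 counts) on the opposite strand, and 18.0% of its 31-base words are found in other genes. NDUFAB1 had 0.18, and MCAT -0.21 with an interval from -0.44 to 0.02.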
